A study of Homo sapiens with 6 samples.

Results

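The comparison described here sets the column labelled KO1 against the control column NC in MDA-MB-231 cells, an established human triple-negative breast cancer line. NC is the control genotype and KO1 is labelled as a knockout of ARID1A, a subunit of BAF, a complex that remodels chromatin and is often mutated in cancer. How the knockout was made, whether KO1 is 1 clone, and any treatment or culture time are not given in the sources used here. The labels list 2 samples for each of the 3 groups NC, KO1 and KO2, and KO2 is a second line labelled as an ARID1A knockout. The table holds 1 column of estimated counts per group, so no spread between cultures could be computed, no test could be run and no p-value is given. Of 58174 gene IDs, 14504 had a mean over NC and KO1 of at least 1 CPM (counts scaled to library size) and are called measured. Pairs of CPM values below are NC and then KO1, and sets of 3 are NC, KO1 and KO2. Both knockout columns are set against the same NC column, so an error in NC would move both.

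A gene was counted as higher or lower in KO1 when its log2 fold was at least 1 in size, with a prior count of 2, and its exact 95% interval did not reach 1. The interval covers counting error only, since it is computed from 1 column per group. Reads that carry no molecular identifiers do not count molecules, so it may be too narrow even for that error. By this size rule 2199 genes (15.2%) were higher and 2576 (17.8%) lower in KO1, and these shares are the background against which each gene list below is read. The median log2 fold of all measured genes was -0.03, and 45.0% of genes lay within 1.5-fold. The NC column summed to 26798753 counts, KO1 to 25801499 and KO2 to 26144758. Mitochondrially encoded genes held 12.8%, 20.5% and 16.9% of them.

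The split between higher and lower genes depended on the scaling. With library totals alone 1622 genes were higher and 3285 lower (33.1% of those past the rule were higher, against 46.1% after TMM scaling), and the median log2 fold was -0.25. TPM also divides by transcript length, and for it the log2 fold was used alone, with a pseudocount of 0.1 and no interval. With TPM 1348 were higher and 3868 lower (25.8% higher), and the median was -0.39. The log2 folds below are after TMM scaling, and each is lower with library totals alone, by as much as the median is.

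The targeted gene and the identity of the cells were looked at first. ARID1A (ENSG00000117713, hg38 chr1:26693236-26782104, plus strand) was at 77.5 CPM in NC, 45.5 CPM in KO1 and 83.9 CPM in KO2. It was 1.70-fold lower in KO1 than in NC (95% interval 1.58 to 1.84), which is under the 2-fold minimum of the rule. Coding transcripts held 90.3% of its NC counts and 65.3% of its KO1 counts, and on those alone its fall was larger and passed the rule. Its transcripts differed in direction: ARID1A-212 had 1410 estimated counts in NC and 5 in KO1, whereas ARID1A-201 had 196 and 681. The division of counts between transcripts of a gene is an estimate. Of the line's 8 expressed markers, VIM (3422 and 4695 CPM), CD44 (766 and 728 CPM) and AXL (1510 and 1434 CPM) were high in both NC and KO1. EGFR (152 and 427 CPM) and KRT18 (142 and 355 CPM) passed the rule as higher in KO1. ESR1 and PGR, receptors that triple-negative cells lack, were not measured at 1 CPM. ERBB2, the third receptor such cells do not overexpress, was measured at 75.9 CPM in NC, 27.9 CPM in KO1 and 52.4 CPM in KO2. Of 23 markers of other cell types 6 were measured. They were CD14, PECAM1, KDR, PDGFRB, GATA3 and KRT19, with a summed level of 102 CPM in the control and 348 CPM in KO1, of which KRT19 held 72.2 and 328 CPM.

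**Figure D1:**
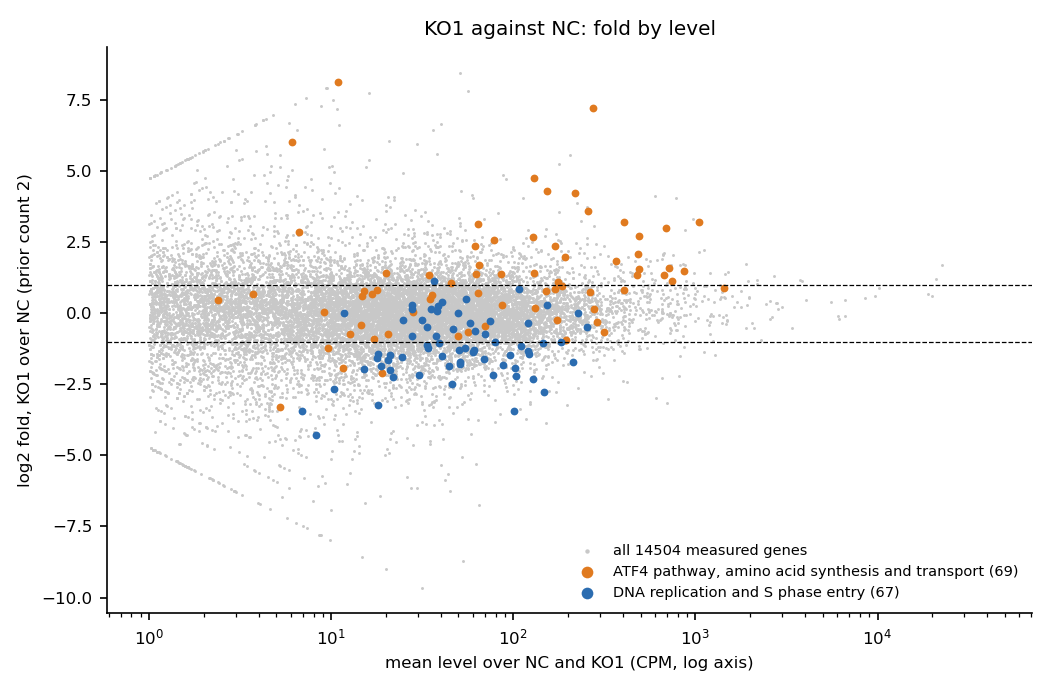
Each point is 1 of 14504 measured genes, with its mean level over NC and KO1 in CPM on a log axis and its log2 fold of KO1 over NC on the vertical axis; dashed lines mark a log2 fold of 1 and -1. Genes of the ATF4 pathway and of amino acid synthesis and transport (orange) lie mostly above 0, and DNA replication genes (blue) mostly below it, with medians of 1.54 for the ATF4 pathway and -1.31 for replication.

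Cells short of amino acids, or with unfolded protein in the endoplasmic reticulum, phosphorylate the translation factor eIF2 alpha. Bulk translation then slows while the transcription factor ATF4 is made. ATF4 dimerises with C/EBP proteins on composite C/EBP-ATF elements and induces genes that import and make amino acids, charge tRNAs and restart translation. This programme is known as the integrated stress response.

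Genes of the ATF4 pathway were higher in KO1 as a group. Of 25 measured members 16 (64.0%) were higher, 0 lower and 9 neither, with a median log2 fold of 1.54. The 4 kinases of eIF2 alpha did not pass the rule in either direction. EIF2AK3, the kinase of the endoplasmic reticulum, was at 16.8 CPM in the control and 12.4 CPM in KO1, and EIF2AK4, the sensor of uncharged tRNA, at 69.7 and 43.4 CPM. The kinases are controlled through their activity, which RNA levels do not report.

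Among the transcription factors 5 of 8 were higher. ATF4 itself was at 384 CPM in NC, 966 CPM in KO1 and 331 CPM in KO2, or 2.52-fold higher in KO1 than in NC (2.46 to 2.58). DDIT3, the CHOP protein that acts late in sustained stress, was at 22.6, 134 and 29.6 CPM. CEBPG, a dimer partner of ATF4, was at 55.2, 285 and 44.6 CPM. For these 3 genes NC and KO2 lay close together and KO1 alone was high. ATF3, another stress-induced factor, did not pass the rule, at 12.9 CPM in the control and 20.5 CPM in KO1, and NUPR1 was at 15.8 and 9.43 CPM.

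The feedback and effector genes of the pathway were higher in 7 of 9 cases, with a median log2 fold of 3.11. CHAC1, which degrades glutathione, was at 14.8 CPM in NC, 291 CPM in KO1 and 14.5 CPM in KO2, 19.7-fold higher in KO1 than in NC (17.8 to 21.8). SESN2, a leucine sensor that restrains mTORC1, was at 22.2, 415 and 17.2 CPM, 18.7-fold higher (17.3 to 20.3). TRIB3, a pseudokinase that restrains ATF4, was at 79.7, 732 and 38.7 CPM. PPP1R15A, the phosphatase subunit that reverses eIF2 alpha phosphorylation, was at 203, 1888 and 203 CPM, 9.31-fold higher (9.05 to 9.57). In CHAC1, SESN2 and PPP1R15A the NC and KO2 columns were within 1.5-fold of each other, and TRIB3 was lower in KO2 than in NC. DDIT4 (160.3 and 572 CPM), EIF4EBP1 (252 and 734 CPM) and VLDLR (13.2 and 115 CPM) were also higher in KO1, and XPOT (197 and 332 CPM) and KLHL24 (8.99 and 9.30 CPM) did not pass.

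All 4 measured secreted products of the pathway were higher. GDF15, a stress hormone that acts on the hindbrain, was at 3.62 CPM in NC, 542 CPM in KO1 and 36.7 CPM in KO2, 149.8-fold higher in KO1 than in NC (123 to 184). INHBE, an activin subunit, had 3 counts in NC and 278 in KO1, a ratio of 111.9 after scaling (37.9 to 546). STC2, a secreted glycoprotein, was at 1.58 and 11.7 CPM. VEGFA, the growth factor of blood vessels, was at 39.1, 474 and 139 CPM, but only 9.81% of its KO1 counts and 26.8% of its NC counts lay on coding transcripts. On those alone it was still higher in KO1 than in NC, by a smaller fold. Of the 16 higher members of the whole list, 14 were also higher in KO1 than in KO2. Both comparisons share the KO1 column, and of all genes higher in KO1 than in NC 42.6% were also higher than in KO2. Between those columns 1640 of 14428 genes were higher in KO1 (11.4%) and 2113 lower (14.6%).

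C/EBP-ATF elements were searched in promoter sequences because several of these genes are known to carry one. The windows run from 250 bases before to 50 bases after each RefSeq start (GRCh38.p14). The motif was TGATGNAA, read on both strands. A match stood in 3.62% of all 35116 windows and in 1.97% of the 15458 windows of measured genes. The share was 12.9% of 31 windows for the ATF4 pathway, 21.7% of 23 for amino acid synthesis, 16.2% of 37 for amino acid transporters and 20.5% of 39 for tRNA synthetases. It was 3.57% of 28 windows for the endoplasmic reticulum list, and 2.90% for all genes higher in KO1. The stretches below are shown for the 4 members with the largest folds among those higher in KO1 with a match wholly before the start. They read 5′ to 3′ on the gene's strand, with the match in capitals and up to 30 bases on each side.
CHAC1: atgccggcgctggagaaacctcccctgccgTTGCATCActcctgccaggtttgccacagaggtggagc
ASNS: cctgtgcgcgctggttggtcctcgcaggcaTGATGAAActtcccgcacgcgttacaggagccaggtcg
CEBPG: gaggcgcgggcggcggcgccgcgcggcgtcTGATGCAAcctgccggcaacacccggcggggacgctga
GARS1: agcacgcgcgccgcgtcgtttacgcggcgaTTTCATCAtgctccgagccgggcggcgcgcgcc
The CHAC1 stretch is chr15:40953232-40953299, and its match begins 209 bases before the start, on the opposite strand. ASNS is chr7:97872439-97872506 with a match 68 bases before the start, and CEBPG is chr19:33374041-33374108 with a match 42 bases before it, both on the gene's own strand. GARS1 is chr7:30594815-30594877, with a match 33 bases before the start on the opposite strand. A match is a description of these letters and not a measured binding site. Not every gene with a match passed the rule: 2 of 4 such genes did in the ATF4 pathway, 2 of 3 in amino acid synthesis, 5 of 6 among transporters, where SLC1A3 was lower, and 2 of 8 among tRNA synthetases.

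Enzymes that make amino acids were higher in part. Of 22 measured members 9 (40.9%) were higher, 0 lower and 13 neither, with a median log2 fold of 0.79. CTH, which makes cysteine from cystathionine, was at 9.35 CPM in NC, 251 CPM in KO1 and 9.39 CPM in KO2, 26.8-fold higher in KO1 than in NC (23.7 to 30.5). ASNS, asparagine synthetase, was at 131, 855 and 68.8 CPM, 6.51-fold higher (6.28 to 6.74). GOT1, the cytosolic aspartate aminotransferase, was at 78.8, 307 and 79.7 CPM. For CTH and GOT1 the NC and KO2 columns were nearly equal, and ASNS was lower in KO2 than in NC.

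All 3 enzymes of serine synthesis were higher in KO1. PSAT1, the aminotransferase of the pathway, was at 457 CPM in NC, 1269 CPM in KO1 and 119 CPM in KO2, and PSPH, the last step, at 34.9, 90.3 and 21.6 CPM. PHGDH, the entry step, had 0 counts in NC and 506 in KO1, at least 204-fold higher against a floor of 3 counts in the NC column. Only 4.15% of these PHGDH counts lay on coding transcripts, so the total says little about mRNA for the enzyme. In the folate cycle MTHFD2, a mitochondrial enzyme, was higher (70.7 and 189.8 CPM), and the other 6 measured members did not pass, among them SHMT2 (262 and 292 CPM) and MTHFD1 (256 and 134 CPM). With library totals alone 8 enzymes were higher and 3 lower, and with counts on coding transcripts alone 7 were higher and 3 lower. Over all settings, some of which hold fewer genes, 5 to 10 were higher and 0 to 4 lower.

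Amino acid transporters were divided by role. Of 22 measured members 9 (40.9%) were higher and 4 (18.2%) lower, with a median log2 fold of 0.79. Sodium-coupled carriers held 6 of the higher members. SLC6A9, a glycine carrier, was at 34.5 CPM in NC, 221 CPM in KO1 and 27.8 CPM in KO2, SLC1A4, which carries serine and alanine, at 19.9, 103 and 9.39 CPM, and SLC38A1, a glutamine carrier, at 188, 784 and 298 CPM. SLC38A2, a carrier induced by amino acid shortage, was at 153, 1222 and 471 CPM, with 55.7% of its NC counts and 10.4% of its KO1 counts on coding transcripts. On those transcripts alone its log2 fold was 0.58, against 2.997 for all of them. The exchanger chains SLC3A2 (356, 1070 and 130.4 CPM) and SLC7A6 (30.8, 99.5 and 31.6 CPM) passed, and SLC7A5, the large neutral exchanger, was at 1006, 1874 and 362 CPM, 1.86-fold higher in KO1 than in NC (1.83 to 1.89) and short of the rule. The 4 lower carriers were SLC1A3, a glutamate carrier (9.57 and 0.908 CPM), SLC38A7, SLC43A2 and SLC7A2.

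The tRNA synthetases did not stand apart from the background. Of 37 measured members 4 (10.8%) were higher and 2 lower, and their median log2 fold of 0.22 turned to -0.18 with TPM. GARS1, which charges glycine tRNA, was at 260.1 CPM in the control and 1060 CPM in KO1. Coding transcripts held 54.2% of its NC counts and 38.6% of its KO1 counts. AARS1 (160.1 and 362 CPM) and YARS1 (171 and 367 CPM) passed in the cytosolic set, and HARS2 (12.9 and 28.5 CPM) in the mitochondrial set. On coding transcripts alone the log2 fold of YARS1 was -0.08. The lower members, LARS2 (15.05 and 4.63 CPM) and SARS2 (25.3 and 9.99 CPM), both charge mitochondrial tRNAs.

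**Figure D2:**
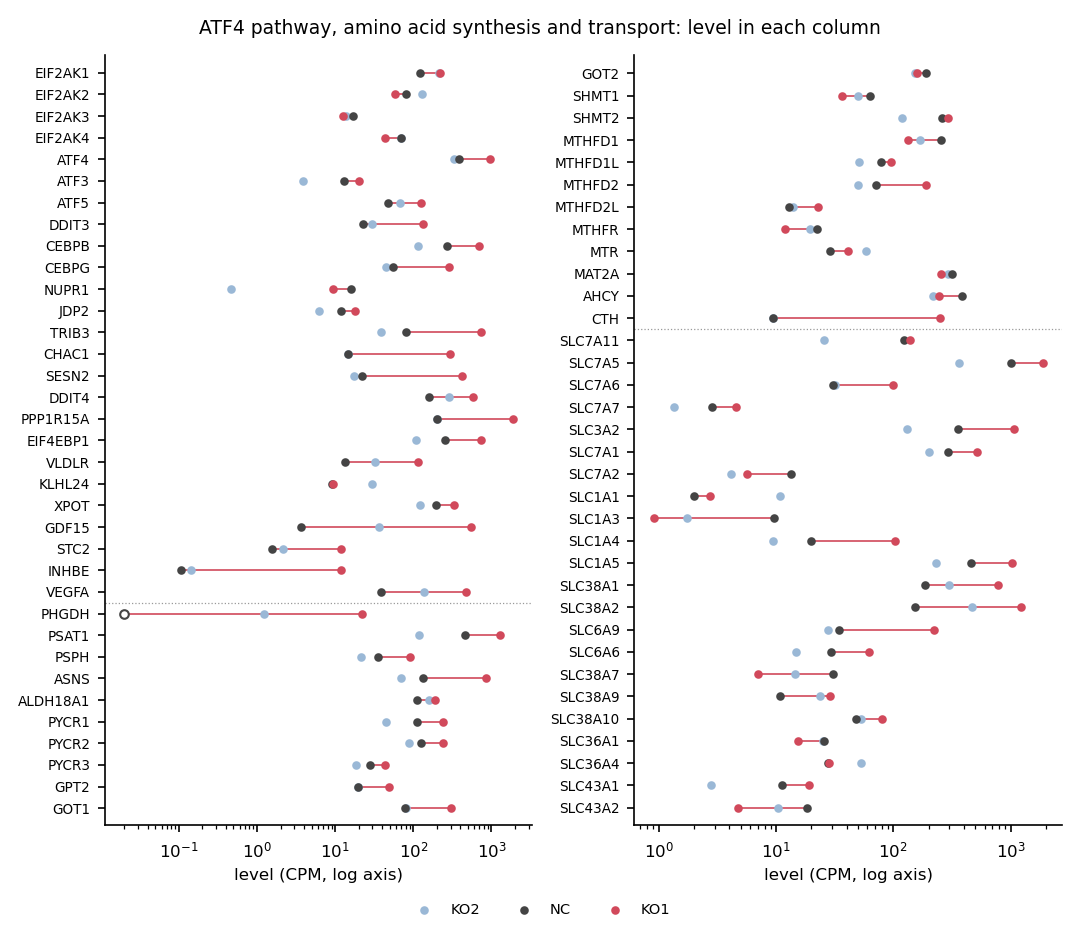
Levels in NC (black), KO1 (red) and KO2 (pale blue) of the 69 measured genes of the ATF4 pathway, amino acid synthesis and amino acid transport, in CPM on a log axis, with 1 point per column and a line from NC to KO1; the open circle is PHGDH at 0 counts in NC, drawn at the left edge. Dotted lines part the 3 lists. The red points of CHAC1, SESN2, TRIB3, GDF15, ASNS and CTH stand to the right of both other columns.

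The endoplasmic reticulum branch of the stress response was higher in a smaller share of its members. Of 24 measured members 7 (29.2%) were higher and 0 lower, with a median log2 fold of 0.56. ERN1, the IRE1 sensor that splices XBP1 RNA, was at 12.9 CPM in NC, 212 CPM in KO1 and 23.8 CPM in KO2, 16.4-fold higher in KO1 than in NC (14.8 to 18.3). HSPA5, the main chaperone of the compartment, was at 886, 2921 and 1187 CPM. DNAJB9, its co-chaperone, was at 8.24, 59.2 and 22.3 CPM, and CANX, a lectin chaperone, at 541, 1431 and 352 CPM. Neither XBP1 (95.9 and 128 CPM) nor HSP90B1 (295 and 425 CPM) passed, and CALR was at 674 and 430.0 CPM. DNAJB11 passed on all transcripts, with a log2 fold of 1.36, and was at -0.51 on coding transcripts alone.

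Cytosolic heat shock genes were lower or did not pass. Of 14 measured members 0 were higher and 5 (35.7%) lower, with a median log2 fold of -0.59. HSPA8, the constitutive HSP70, was at 1079 CPM in NC, 224 CPM in KO1 and 982 CPM in KO2, 4.82-fold lower in KO1 than in NC (4.68 to 4.97). The stress-induced HSP70 genes HSPA1A (66.1, 18.7 and 85.5 CPM) and HSPA1B (137, 56.7 and 169 CPM) are near-identical copies, so counts may be divided between them wrongly, and both were low in KO1. DNAJA1 and HSPB1 were the other lower members. HSP90AA1, the member with the highest mean, was at 1568 and 1237 CPM and did not pass.

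DNA replication starts when E2F factors, freed from the retinoblastoma protein, switch on the genes of S phase. Origins are licensed by loading the MCM helicase, the CDC45 and GINS proteins activate it, and polymerases copy each strand with the sliding clamp PCNA. Mitotic genes are driven later, by other factors.

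Replication genes were the list with the lowest median in KO1. Of 67 measured members 42 (62.7%) were lower, 1 higher and 24 neither, and the median log2 fold was -1.31. In a bulk sample fewer cells in S phase and less RNA per cell cannot be told apart. All 6 genes of chromatin copying were lower. UHRF1, which guides maintenance DNA methylation, was at 185 CPM in NC, 17.1 CPM in KO1 and 160.4 CPM in KO2, 10.8-fold lower in KO1 than in NC (9.78 to 12.03). DNMT1, its methyltransferase partner, was at 246, 121 and 216 CPM, and CHAF1B, a histone chaperone subunit, at 50.05, 10.9 and 32.99 CPM. KO1 alone was low for UHRF1, with NC and KO2 within 1.5-fold.

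E2F and cyclin E genes were lower in 6 of 7 cases. E2F2 was at 15.8 CPM in NC, 0.735 CPM in KO1 and 8.39 CPM in KO2, 21.4-fold lower in KO1 than in NC (13.2 to 37.1). E2F1 was at 171, 37.0 and 93.6 CPM, and CCNE2, a cyclin E, at 12.7, 1.08 and 18.03 CPM. E2F7, a repressor of the family, was the exception at 75.9 and 138 CPM, short of the rule.

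The helicase genes were lower in 5 of 6 cases, from MCM2 at 127 CPM in the control and 28.1 CPM in KO1 to MCM3 at 196 and 94.98 CPM. MCM7 was unlike the other 5, at 229 CPM in the control and 227 CPM in KO1, although the complex holds all 6 proteins. Of the 10 helicase activators 5 were lower, among them MCM10 (36.3 and 7.57 CPM) and CDC45 (59.9 and 20.9 CPM). The loading factors were less uniform, with 2 of 9 lower and 1 higher. ORC1, the cycling subunit of the origin recognition complex, was at 32.9 CPM in the control and 3.42 CPM in KO1, and CDT1 at 78.1 and 23.6 CPM. ORC2 was at 49.98 and 49.96 CPM, and ORC5 was the only higher member of the whole list, at 22.8 and 50.3 CPM. With library totals alone ORC5 did not pass, at a log2 fold of 0.92.

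At the fork, PCNA was at 259 CPM in NC, 37.3 CPM in KO1 and 223 CPM in KO2, 6.94-fold lower in KO1 than in NC (6.46 to 7.45). Of 9 polymerase and primase genes 6 were lower, led by the primase PRIM1 (18.1, 2.77 and 13.7 CPM). RPA1, which coats single-stranded DNA, was at 214, 42.5 and 113 CPM, and its partners RPA2 (75.3 and 48.7 CPM) and RPA3 (35.0 and 42.0 CPM) did not pass. LIG1, the ligase that seals fragments, was at 77.8, 13.8 and 82.6 CPM, and FEN1, which trims them, at 161, 42.0 and 100.2 CPM. TYMS and RRM1 and RRM2, which supply nucleotides, were lower, at 137 and 38.1 CPM, 142 and 51.1 CPM, and 104 and 34.0 CPM. TK1, the member with the highest mean, was at 296 and 210.3 CPM and did not pass. Of the 42 lower members 28 were also lower in KO1 than in KO2, where the share among all genes lower than NC was 48.1%.

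E2F motifs were searched in the same promoter windows, as TTTCCCGC or TTTGGCGC on both strands, with a window counted once. A match stood in 2.27% of all windows, 3.33% of windows of measured genes and 32.4% of the 74 windows of measured replication genes. For all genes lower in KO1 the share was 3.67%, near that of measured genes. Of the 24 replication genes with a match 17 passed the rule. Shown in the same way as above are the 4 lower members with the largest folds among those with a match wholly before the start in the RefSeq table, in which CCNE2 was not matched.
E2F2: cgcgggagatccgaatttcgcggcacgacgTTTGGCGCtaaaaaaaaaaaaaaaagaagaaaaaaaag
UHRF1: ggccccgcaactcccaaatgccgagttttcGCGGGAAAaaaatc
PCNA: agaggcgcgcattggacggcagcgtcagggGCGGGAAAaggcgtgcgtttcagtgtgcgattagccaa
LIG1: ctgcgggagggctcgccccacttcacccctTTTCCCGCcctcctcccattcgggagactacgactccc
They are chr1:23531238-23531305, chr19:4909457-4909500, chr20:5126644-5126711 and chr19:48170421-48170488 in this order. The matches begin 42, 14, 59 and 114 bases before the start, on the gene's own strand for E2F2 and LIG1 and on the opposite strand for UHRF1 and PCNA. Genes without a match were lower too: ORC1 and MCM2, for example, have neither motif in their windows.

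**Figure D3:**
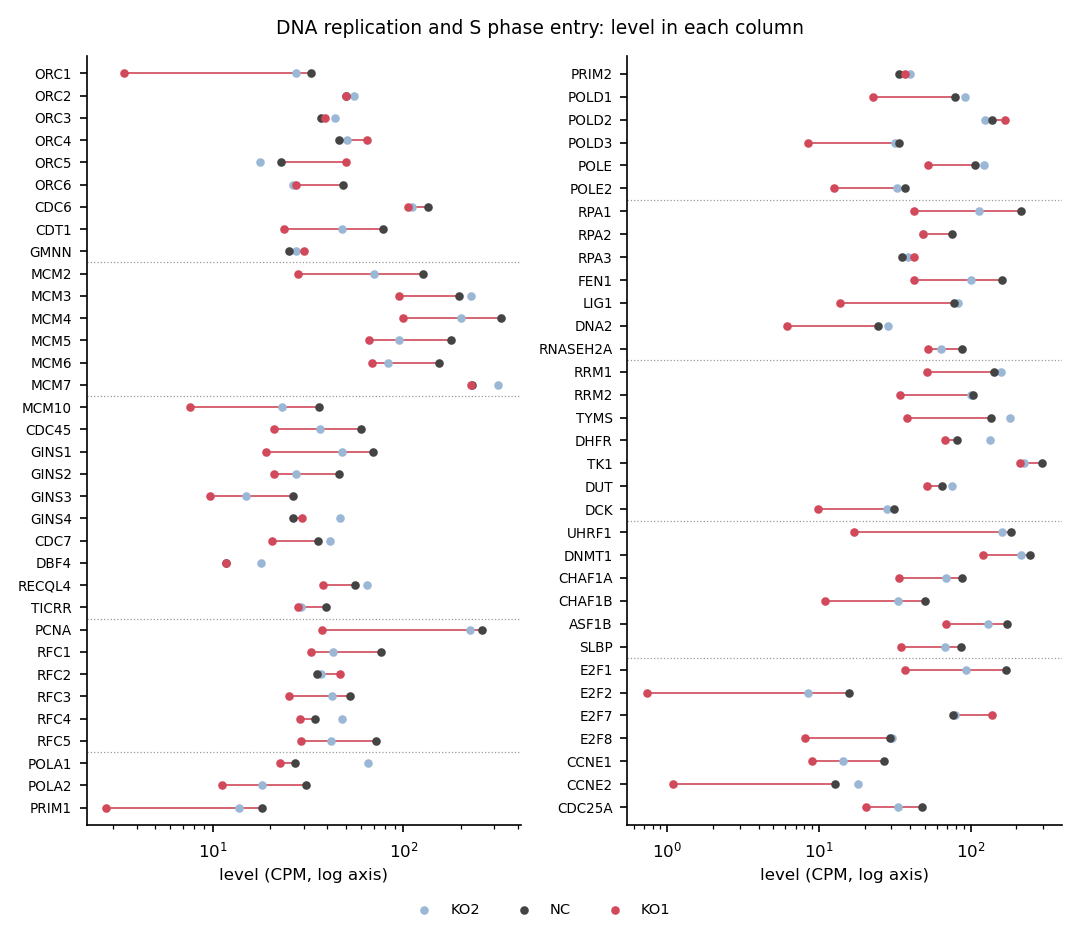
Levels of the 67 measured DNA replication genes in NC (black), KO1 (red) and KO2 (pale blue), in CPM on a log axis, with 1 point per column and a line from NC to KO1; dotted lines part the roles. The red points lie to the left of both other columns for UHRF1, PCNA, E2F2, ORC1 and LIG1, while those of MCM7 and ORC2 coincide with NC.

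Genes of mitosis did not follow the replication genes. Of 40 measured members 0 were higher and 6 lower, near the background of 17.8%, and the median log2 fold was -0.03. CDK1, the mitotic kinase, was at 103 CPM in the control and 107 CPM in KO1, TPX2, a spindle factor, at 545 and 531 CPM, and CCNB1 at 176 and 318 CPM. The lower members were MKI67 (292 and 82.1 CPM), a nuclear protein used as a marker of cycling cells, AURKA (254 and 85.0 CPM), BIRC5, KIF20A, MAD2L1 and BUB1B.

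Genes of DNA damage response and repair were lower in 12 of 37 cases (32.4%) and higher in 1, with a median log2 fold of -0.63. The Fanconi anemia genes were lower in 4 of 6 cases and homologous recombination genes in 4 of 13. BARD1, the partner of BRCA1, was at 26.3 CPM in NC, 3.29 CPM in KO1 and 29.3 CPM in KO2, 7.999-fold lower in KO1 than in NC (6.31 to 10.3), whereas BRCA1 itself was at 16.7 and 15.7 CPM. PARP1 was at 202, 59.0 and 203 CPM. RAD50, of the break-sensing MRN complex, was higher at 21.6 and 46.6 CPM, and its log2 fold was 0.89 with library totals alone.

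Among cyclin D, CDK and RB genes 4 of 14 were higher and 5 lower. CCND2 encodes a cyclin of the D type and stood at 0.430 CPM in NC, 112 CPM in KO1 and 3.82 CPM in KO2, 261-fold higher in KO1 than in NC (149 to 507). The other D cyclins were lower or short of the rule, CCND3 at 64.0, 13.3 and 52.1 CPM and CCND1 at 517, 284 and 396 CPM. CDK6, their kinase, was at 71.1 and 187 CPM, and CDK4 at 172 and 170.4 CPM. The pocket proteins RBL1 (73.3 and 19.9 CPM) and RBL2 (29.8 and 14.1 CPM) were lower. CDKN1A, the p21 inhibitor, was at 134 and 271 CPM with a log2 fold of 1.01, and it fell short of the rule with library totals alone (0.80), with DESeq2 size factors (0.97) and on coding transcripts (0.96).

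The p53 target list, which holds CDKN1A, had 6 of 21 members higher and 4 lower, with a median log2 fold of 0.11 that was -0.11 with library totals alone. GADD45A, a gene induced by several kinds of stress, was at 59.1 CPM in NC, 497 CPM in KO1 and 40.7 CPM in KO2, 8.41-fold higher in KO1 than in NC (7.99 to 8.86). PLK3 (15.2 and 88.8 CPM), BBC3 (15.2 and 51.0 CPM) and TIGAR (12.6 and 36.4 CPM) were also higher. TNFRSF10B, a death receptor, passed on all transcripts (145 and 345 CPM), but 5.94% of its KO1 counts lay on coding ones, where its log2 fold was -2.53. MDM2 (53.7 and 58.0 CPM) did not pass, and BTG2, ZMAT3, FAS and FDXR were lower. Among apoptosis regulators 7 of 19 were higher and 1, BCL2, lower. MCL1, a short-lived survival protein, was at 243, 708 and 277 CPM, and BCL2A1 had 0 counts in NC and was at 6.14 CPM in KO1.

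Sterol synthesis runs from acetyl-CoA through mevalonate to squalene and cholesterol, and its genes are switched on together by SREBF2 when membrane sterol is low. Fatty acid synthesis is driven mainly by SREBF1. In KO1 the genes of both pathways were lower in part.

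Of 33 measured cholesterol genes 13 (39.4%) were lower and 2 higher, with a median log2 fold of -0.72. The mevalonate steps were lower in 7 of 8 cases. HMGCS1, HMG-CoA synthase, was at 139 CPM in NC, 32.4 CPM in KO1 and 114 CPM in KO2, 4.30-fold lower in KO1 than in NC (3.97 to 4.65). IDI1, an isomerase of the pathway, was at 111, 29.3 and 109 CPM. NC and KO2 were within 1.5-fold for both. PMVK, the other mevalonate gene, was at 28.98 and 17.5 CPM. Of the 12 steps that make squalene and turn it into cholesterol 4 were lower, FDFT1, squalene synthase (131 and 25.3 CPM), MSMO1, HSD17B7 and LSS, while SQLE (27.5 and 18.04 CPM) and CYP51A1 (79.5 and 95.3 CPM) did not pass. The regulator SREBF2 was lower, at 209 and 91.3 CPM.

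The 2 higher members export cholesterol and are known targets of the LXR receptors. ABCA1 was at 40.5 CPM in NC, 173 CPM in KO1 and 92.0 CPM in KO2, 4.28-fold higher in KO1 than in NC (4.005 to 4.58). ABCG1 was at 1.003, 20.03 and 5.82 CPM, 19.96-fold higher (13.6 to 30.4). The sterol response element TCACCCCAC stood in 0.430% of all promoter windows and in 1 of 32 windows of measured cholesterol genes, that of SREBF2.

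Fatty acid genes were lower in 7 of 15 cases (46.7%) and higher in 0, with a median log2 fold of -0.90. FADS2, a desaturase of polyunsaturated fatty acids, was at 217 CPM in NC, 16.2 CPM in KO1 and 123 CPM in KO2, 13.4-fold lower in KO1 than in NC (12.1 to 14.9). FADS1, its neighbour in the same pathway, was at 269, 56.1 and 158 CPM. FASN, fatty acid synthase, was at 421, 168 and 685 CPM, and ACLY, which supplies acetyl-CoA, at 399.6, 166 and 287 CPM. SCD, the member with the highest mean, was at 828 and 761 CPM and did not pass, and SREBF1 was at 155 and 240.2 CPM.

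**Figure D4:**
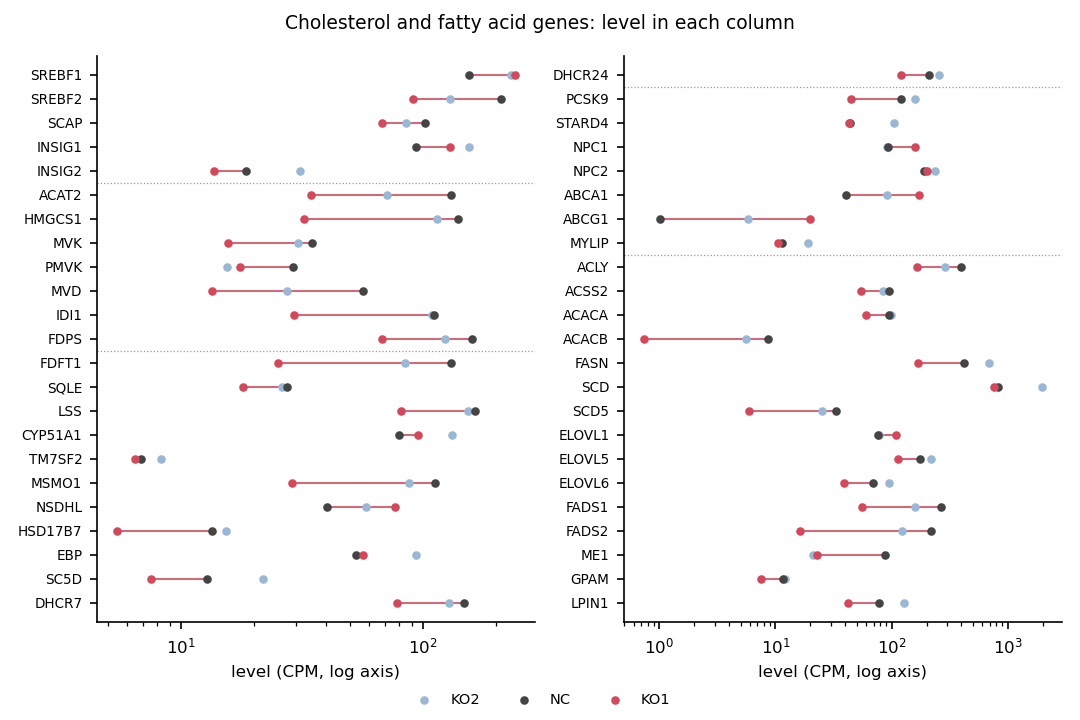
Levels of measured cholesterol genes and of the 15 measured fatty acid genes in NC (black), KO1 (red) and KO2 (pale blue), in CPM on a log axis, with 1 point per column and a line from NC to KO1; dotted lines part regulators, mevalonate steps, later steps, uptake and transport, and fatty acid enzymes. The red points of the mevalonate genes from ACAT2 to FDPS lie to the left of NC, and those of ABCA1 and ABCG1 to the right.

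Central carbon and protein housekeeping genes mostly stayed inside the rule. Of 25 genes of glucose uptake and glycolysis 2 were higher and 3 lower. GAPDH was at 4812 CPM in the control and 6329 CPM in KO1, HK2, an inducible hexokinase, at 32.3 and 110.4 CPM, and SLC16A1, a lactate carrier, at 2.40 and 13.4 CPM. Hypoxia genes had 1 of 16 higher, ANGPTL4 (4.37 and 28.3 CPM), and 0 lower. No proteasome gene of 16 passed. Of 33 ribosomal protein genes 2 were higher, RPL10 (651 and 1749 CPM) and RPL18 (633 and 1314 CPM), and 0 lower. RPL7A, outside the list, was lower at 1885 and 684 CPM, with 1.45% of its NC counts and 0.942% of its KO1 counts on coding transcripts. Among 31 nuclear genes of the respiratory chain 0 were higher and 2 lower, among them SDHA. Coding transcripts held 45.4% of the NC counts and 16.8% of the KO1 counts of SDHA.

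The mitochondrially encoded genes, which took a larger share of KO1, were higher in 4 of 15 cases. The ribosomal RNAs MT-RNR2 (10690 and 34371 CPM) and MT-RNR1 (1553 and 3867 CPM) passed, as did MT-ND4 (12754 and 28910 CPM) and MT-ND4L (2329 and 5179 CPM). Cytochrome b, MT-CYB, was the only one with a negative log2 fold, at 6620 and 5663 CPM. With library totals alone MT-ND4 and MT-ND4L no longer passed. MTCO1P12, a nuclear copy of a mitochondrial gene at 2398 and 5298 CPM, may share reads with MT-CO1.

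Autophagy and lysosome genes passed the rule in few cases. In the autophagy core 3 of 12 were higher and 0 lower: GABARAPL1 (5.30 and 57.1 CPM), MAP1LC3B (65.2 and 299.6 CPM), both of which coat autophagosomes, and the initiating kinase ULK1 (30.1, 124 and 36.2 CPM). In the lysosome set 2 of 12 were higher and 3 lower, near the background. Of these the proteases CTSB (388, 62.4 and 153 CPM) and CTSD (435, 141 and 416 CPM) were lower. Coding transcripts held 87.7% of the NC counts and 42.2% of the KO1 counts of CTSD. The transcription factors of this set were divided, with TFE3 (138 and 421 CPM) and MITF higher and TFEB (4.69 and 1.08 CPM) lower. Over both sets the median of 24 members was -0.03 and turned positive at most to 0.03 under other settings.

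NRF2 is the transcription factor of the antioxidant response. The list of its targets, its regulators and glutathione genes was lower in 9 of 23 cases (39.1%) and higher in 4, with a median log2 fold of -0.71. Of 12 oxidoreductases 7 were lower, including AKR1C1 (128, 1.12 and 2.64 CPM), NQO1 (469.6, 125 and 107 CPM) and TXNRD1 (763, 323 and 90.7 CPM). These were low in KO2 as well, and 10 of the 12 were lower in KO2 than in the same NC column. AKR1C1, AKR1C2 and AKR1C3 are closely related genes and may share counts. NFE2L2, which encodes NRF2, was higher at 52.98, 134 and 58.2 CPM, and KEAP1, its inhibitor, lower at 92.0, 38.7 and 65.7 CPM. AKR1B1, an aldose reductase outside the list, was at 1252, 139 and 241 CPM, 9.03-fold lower in KO1 than in NC (8.71 to 9.37).

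Clustered histone genes are transcribed in S phase and mostly lack a poly(A) tail, and total RNA libraries can hold them. Of 13 measured members 8 (61.5%) were higher in KO1 and 0 lower, with a median log2 fold of 1.21, in the same column in which the replication genes were lower. H1-2, a linker histone, was at 23.0 CPM in NC, 128 CPM in KO1 and 49.0 CPM in KO2, and H2AC6 at 10.03, 49.0 and 21.03 CPM. The other 6 higher members were below 10 CPM in every column, and with a minimum mean of 5 CPM the count was 2 and the median -0.03. H2AC18, H2AC19 and H3C2 were not matched to the table.

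Subunits of the BAF and PBAF complexes had 2 of 27 members higher and 5 lower, near the background. SMARCD3 (27.7, 5.80 and 10.2 CPM), SMARCC2 (60.5, 23.7 and 53.5 CPM), SMARCD2 (107, 44.7 and 67.9 CPM), PBRM1 (57.7, 18.4 and 97.9 CPM) and DPF1 (13.3, 2.51 and 6.07 CPM) were lower. BICRAL (11.6, 24.1 and 17.2 CPM) and BCL7B (59.8, 146 and 69.9 CPM) were higher. Of the BCL7B counts only 8.02% in NC and 2.99% in KO1 lay on coding transcripts, where its log2 fold was -0.13. Of the SMARCD3 counts 50.7% in NC and 20.9% in KO1 lay on coding transcripts. ARID1B, the paralog that can take the place of ARID1A, was at 16.8 and 20.1 CPM, and the ATPase SMARCA4 at 138 and 91.1 CPM.

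Signalling outputs were higher in many cases. Of 23 ERK outputs and immediate-early genes 11 (47.8%) were higher and 2 lower, with a median log2 fold of 0.90. EGR1, an immediate-early factor, was at 5.80 CPM in NC, 169 CPM in KO1 and 27.5 CPM in KO2, 29.1-fold higher in KO1 than in NC (24.8 to 34.2). IER3 (296, 1211 and 529 CPM), SPRY4 (45.5, 428 and 219 CPM) and DUSP6 (23.3, 124 and 72.9 CPM) were also higher, with KO2 between NC and KO1. The lower members were ETV1 (21.4, 4.24 and 59.3 CPM) and SPRY1 (6.77, 2.90 and 23.3 CPM), and in both KO2 was the highest column.

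NF-kB genes and cytokines differed in both directions, with 11 of 26 (42.3%) higher and 7 (26.9%) lower. PTGS2, the inducible cyclooxygenase, was at 1.47 CPM in NC, 74.7 CPM in KO1 and 22.0 CPM in KO2, 50.8-fold higher in KO1 than in NC (37.3 to 71.1). IL6 (78.9, 385 and 78.2 CPM), IL1A (48.0, 186 and 15.3 CPM), LIF (82.6, 327 and 112 CPM) and CXCL2 (41.9, 177 and 35.3 CPM) were higher. IL7R, a cytokine receptor chain, was at 88.2, 1.08 and 10.9 CPM, 81.6-fold lower (55.1 to 126), and CSF1 (429.6, 138 and 389 CPM), CXCL1 (230.2, 81.0 and 86.6 CPM) and CCL5 (17.7, 3.63 and 2.28 CPM) were lower. CXCL1 and CXCL2 are related chemokines and lay on opposite sides of NC. RELA, an NF-kB subunit, was lower on all transcripts (log2 fold -1.47) and higher on coding transcripts alone (3.51), so no direction is given for it.

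Interferon genes were lower in 15 of 45 cases (33.3%) and higher in 2, with a median log2 fold of -0.59. The lower ones were antiviral effectors in 13 of 24 cases and the RNA sensors RIGI (151, 34.7 and 54.8 CPM) and DHX58. TRIM56, a ubiquitin ligase of innate immunity, was at 30.4 CPM in NC, 0.216 CPM in KO1 and 48.8 CPM in KO2, 140.5-fold lower in KO1 than in NC (60.0 to 434). Its KO1 level rests on 5 estimated counts, and its TPM was 4.92 in NC and 0.31 in KO1, a much smaller fold. SAMHD1 was at 40.0, 6.88 and 41.6 CPM, so these 2 effectors were low in KO1 alone, whereas MX1 (50.3, 11.9 and 13.3 CPM) and DDX60 (46.4, 15.1 and 9.14 CPM) were low in KO2 too. None of the 14 receptor and signalling genes was lower.

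Antigen presentation was divided by class. All 8 class II genes were higher, with a median log2 fold of 3.86, and in none of them did KO1 differ from KO2 by the rule. HLA-DRA was at 0.752 CPM in NC, 72.0 CPM in KO1 and 85.8 CPM in KO2, and the invariant chain CD74 at 35.9, 471 and 365 CPM. Of 12 class I genes 2 were higher and 2 lower. HLA-E (165 and 358 CPM) and HLA-C (46.7 and 220.0 CPM) were the higher ones, and B2M (339 and 153 CPM) and NLRC5 (45.0 and 11.5 CPM) the lower ones. Coding transcripts held 53.3% of the NC counts and 28.7% of the KO1 counts of HLA-C. For B2M they held 17.2% and 18.6%, and for NLRC5 56.6% and 22.3%. HLA genes are closely related and vary in sequence, so their counts may be divided wrongly.

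Epithelial genes were higher in 9 of 15 cases (60.0%) and lower in 1, with a median log2 fold of 1.32. CLDN1, a tight junction protein, was at 9.06 CPM in NC, 348 CPM in KO1 and 27.2 CPM in KO2, 38.4-fold higher in KO1 than in NC (33.9 to 43.7). KRT19 (72.2, 328 and 314 CPM) and DSP, a desmosome protein (51.3, 158 and 132 CPM), were high in both KO1 and KO2. ELF3, an epithelial transcription factor, was lower at 43.8, 8.09 and 16.5 CPM. Mesenchymal genes had 1 of 9 higher and 2 lower: CDH11 had 0 counts in NC and was at 3.29 CPM in KO1, and S100A4 (172, 41.7 and 137 CPM) and SNAI1 (8.10, 1.38 and 0.928 CPM) were lower.

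Collagens and matrix genes were lower in 12 of 25 cases (48.0%) and higher in 4, with a median log2 fold of -0.95. Of 12 collagens 7 were lower, among them the basement membrane chains COL4A1 (152, 44.5 and 56.6 CPM) and COL4A2 (539, 172 and 254 CPM), and COL1A1 was higher (19.8 and 49.5 CPM). THBS2, a matricellular protein, was at 25.8, 1.12 and 0.714 CPM, 23.0-fold lower in KO1 than in NC (15.5 to 35.4), and THBS1 at 711, 131 and 358 CPM. Of the laminins, LAMB3 (254, 1078 and 224 CPM) and LAMA5 (74.0, 207 and 390.2 CPM) were among those higher, and LAMA3 was at 25.3 and 13.0 CPM. Of 12 proteases and inhibitors 3 were higher (MMP1, MMP14 and TIMP1) and 0 lower, and of 14 YAP and TAZ targets 4 were higher and 1 lower, with CCN1 at 1656 and 1898 CPM.

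**Figure D5:**
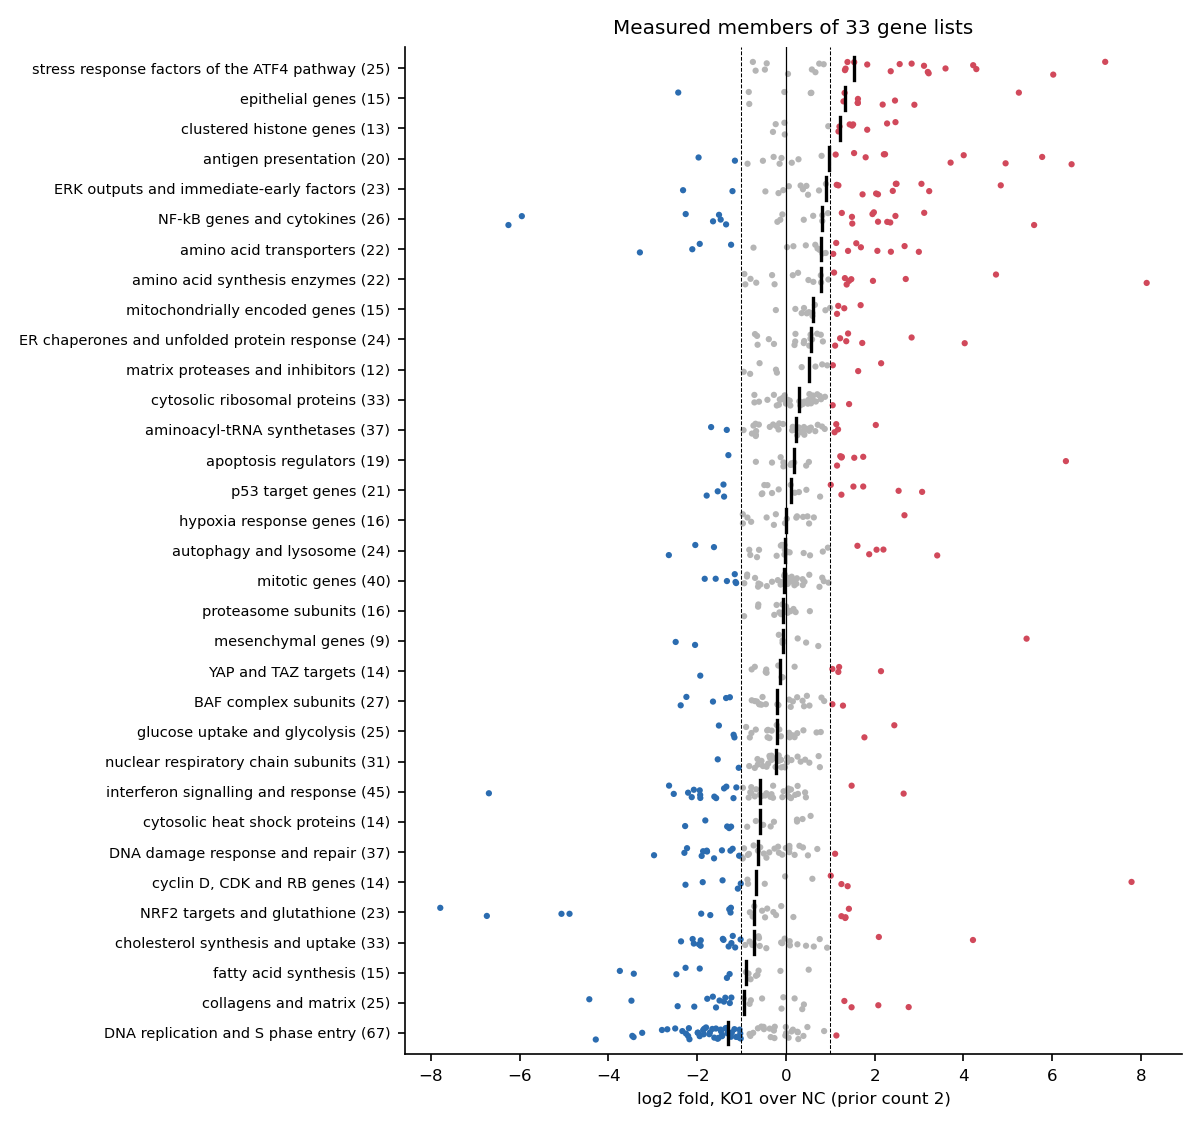
Log2 fold of KO1 over NC for the measured members of 33 gene lists, with 1 point per gene (red higher, blue lower, grey neither by the size rule), the number measured in brackets and a black bar at each median; dashed lines mark 1 and -1. The ATF4 pathway has the highest median (1.54) and DNA replication the lowest (-1.31), and under other settings the medians of tRNA synthetases, cyclin D genes, p53 targets, hypoxia, autophagy, clustered histones, mesenchymal genes, YAP targets and apoptosis regulators changed sign.

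Beyond the lists, the largest folds were in genes that are nearly absent from NC or from KO1. AFAP1-AS1, a long noncoding RNA, was at 0.215 CPM in NC, 102 CPM in KO1 and 79.8 CPM in KO2. KCNK1, a potassium channel, GSPT2, a translation termination factor, and TSPYL5, each with 0 counts in NC, were at least 199-fold, 177-fold and 175-fold higher. SLAMF7, a leukocyte receptor, had 2 counts in NC and 745 in KO1, and ST6GALNAC3, a sialyltransferase, 2 and 499. At the other end ADORA2A, an adenosine receptor, had 1122 counts in NC and 0 in KO1, at least 309.8-fold lower, and FABP5, a fatty acid binding protein, 823 and 0, at least 227-fold lower. TUBB2B, a tubulin of neurons, had 1028 and 8 counts, with 0 counts on coding transcripts in NC. PEDS1-UBE2V1 (1758 and 0 counts) and BIVM-ERCC5 (299 and 1) are read-through genes that share reads with the genes they span, and RPLP0P2, RPS26P19 and ZNF542P are pseudogenes, so their counts are uncertain. In all, 60 genes were higher from 0 counts in NC, and 64 were lower with 0 counts in KO1.

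Among abundant genes, ACTN4, an actin crosslinker, was at 1340, 287 and 926 CPM, 4.67-fold lower in KO1 than in NC (4.55 to 4.79), and complement C3 at 1084, 137 and 212 CPM, 7.91-fold lower (7.62 to 8.20). MT2A, a metallothionein, was higher at 1345, 3011 and 1501 CPM, and PLEC, a cytolinker, at 1451, 2926 and 1687 CPM. PLEC and MT2A did not pass with library totals alone, at 0.80 and 0.95.

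The share of genes past the rule varied with level and base composition. It was 22.5% higher and 24.0% lower among the 3221 genes at 1 to 5 CPM, and 19.4% and 5.09% among the 216 genes at 500 CPM or more. In the fifth of genes with the lowest GC content 17.6% were higher and 9.79% lower, and in the fifth with the highest 11.8% and 25.0%, with median log2 folds of 0.21 and -0.28. Antisense and lincRNA genes were higher in 26.8% and 26.4% of cases, against 13.7% of protein-coding genes. They were lower in 12.1% and 17.1% of cases, against 18.6% of protein-coding genes. These classes were not matched for level. With a fitted trend on GC content and length removed, 41 replication genes were lower and 16 ATF4 pathway genes higher. How much of the list results goes with base composition was not tested.

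In some genes with similar totals the leading transcript differed between NC and KO1. Among 3650 genes with at least 20 CPM in the control and in KO1 and under 1.5-fold change, 375 (10.3%) had a transcript whose share of the gene's TPM moved by 50 percentage points or more, and the median largest move was 12.6 points. REST-201, of the neuronal gene repressor REST, held 98.8% of the gene's TPM in NC, 0% in KO1 and 97.7% in KO2. KIF14-201 held 0.897%, 100% and 4.96% of its gene, a mitotic kinesin, and ACVR1-201, of an activin receptor, 0%, 98.2% and 0%. ZBTB40, SLC23A2, KLF11 and TOR1AIP1 had moves of like size. Such estimates swing between near-identical isoforms, and no replicate shows how far. Over protein-coding genes, transcripts marked as coding held 86.2% of counts in NC and 84.1% in KO1.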

How the data were processed

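Total RNA of MDA-MB-231 cells was extracted with Trizol and sequenced from stranded total RNA libraries, per the labels' protocols. The authors deposited 1 table of 199167 transcripts with estimated counts, given as whole numbers, and TPM values for NC, KO1 and KO2. The deposited TPM values are normalised for transcript length and library size, per the file headers. The deposited FPKM columns were not used here. The submitters' processing notes name CASAVA, Bowtie2, featureCounts and the build hg38, with no versions or roles. The tool that estimated transcript counts, its annotation, its use of strand, and whether a column is 1 library or both samples of its group combined are not given in the sources used here.

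Counts were summed per gene ID over 58174 IDs, of which 41805 had a current symbol. They were scaled with TMM factors (edgeR 4.0.16, R 4.3.3) over the 3 columns, where DESeq2 1.42.0 size factors were an alternative. Exact 95% Clopper-Pearson intervals of each fold came from scipy 1.17.1 in Python 3.11.15, given the summed count of both columns. The deposited counts are estimates that appear rounded up per transcript, so sums over transcripts run slightly high. The intervals and ratios treat them as counts and are approximate. Columns with 0 counts were given a floor of 3 counts for ratios, which can exceed the lower 95% limit of the fold. No column of per-sample values was left unmatched (0 columns). No test was fitted, and the code was tested on simulated data. Overlapping genes, antisense pairs, paralogs and pseudogenes may share reads.

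The members, gene lists and names were chosen with earlier results of these data known. Named by rule were ARID1A and BAF subunits past the size rule, the 15 highest and 15 lowest genes at 5 CPM or more, the 10 most abundant in each direction, up to 5 members of each list in each direction with the member of highest mean, and 8 transcript genes. Other genes were named after their values were seen. Gene lists held 853 genes, of which 850 were matched and 802 measured. Among measured protein-coding list members, 91 had more than 50% of their KO1 counts off coding transcripts. Coding shares are given above for some of these only. Promoter sequences are from RefSeq (GRCh38.p14). Of 12 alternative settings, 2 (coding transcripts only, nuclear protein-coding genes only) were chosen after seeing the data. Some genes of the lists are counted but not reported by name here.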

Additional observations from a re-analysis of the deposited data

Results flagged for a closer look

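In 5 of the 221 named genes past the size rule KO1 and KO2 lay on opposite sides of the shared NC column, each by more than that rule. With 1 column per group the difference was not tested. SLC16A1, a lactate carrier, was at 2.40 CPM in NC, 13.4 CPM in KO1 and 1.11 CPM in KO2, a log2 difference of KO1 over KO2 of 3.51. SLC1A4, a carrier of serine and alanine, differed by 3.44 and PSAT1, of serine synthesis, by 3.41, both highest in KO1 and lowest in KO2. CLSPN, a mediator of the replication checkpoint, was at 18.4, 3.72 and 41.0 CPM, a log2 difference of -3.43. ETV1, an ETS factor, was at 21.4, 4.24 and 59.3 CPM, a log2 difference of -3.78. Among all 4775 measured genes past the rule in KO1, 87 lay on opposite sides in this way, a share near that of the named genes.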

How the results depend on the processing

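No paired analysis was possible because the table holds 1 column per group and the columns carry no replicate number, and for the same reason no replicate could be left out. Under the 12 alternative settings the count of higher genes was 1348 and that of lower genes 3868 with TPM, the higher count was 3447 with no filter on low counts, and among genes that overlap no other gene the counts were 690 and 815. Those last changes follow from testing 26752 and 4405 genes in place of 14504, and the cause of the TPM split was not tested. Of 245 named genes, 226 kept their side of the rule with library totals alone, 18 fell short of it and 1 newly passed. With TPM 211 kept their side, 32 fell short and 2 newly passed. With coding transcripts only, 5 named genes turned direction: DNAJB11 to -0.51, BCL7B to -0.13, TNFRSF10B to -2.53, YARS1 to -0.077 and RELA to 3.51. The other 11 alternatives reversed 0 named genes. The median of the ATF4 pathway ranged from 1.18 to 2.60 over all settings and that of the replication genes from -1.58 to -1.16. Depth limits single genes near 1 CPM, where the floor was 0.107 CPM in NC and 0.130 CPM in KO1, and no setting replaces the missing spread between cultures.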
